A study of Mus musculus with 31 samples.

Results

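The comparison described here is that of H3K4me3 in the hippocampus of Kmt2d heterozygous mice given TAK-418 with that of Kmt2d heterozygous mice given vehicle. It comprised 8 of the 31 ChIP-seq libraries of the series (8 of its 16 H3K4me3 libraries), 4 per group and 1 per mouse, the peak list of each, and all 1715 regions of the authors' list of differential regions for this comparison, out of 11752 regions in the 8 such lists of the series. Members were taken by treatment, genotype and antibody label. All mice of both groups were C57BL6, were 30 days old and carried 1 interrupted copy of Kmt2d (KMT2D+/bGeo), so the controls of this comparison carried the mutation too. One group had received TAK-418 by gavage at 1 mg/kg/day in methylcellulose and the other methylcellulose alone, each for 2 weeks from the age of 2 weeks. Their sex was not given in the sources used here.

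H3K4me3, trimethylated lysine 4 of histone H3, lies on the nucleosomes around the starts of active and poised genes, most of them with CpG-rich promoters. Methyl groups are put on this lysine by the COMPASS-type methyltransferases, which include KMT2A and KMT2D, and are taken off by the demethylases of the KDM5 family (from the trimethylated and dimethylated state) and by LSD1, the product of Kdm1a (from the dimethylated and monomethylated state). Loss of 1 working copy of KMT2D causes Kabuki syndrome in humans, and TAK-418 inhibits the enzyme activity of LSD1. Neither Kmt2d nor Kdm1a had a listed region at its start. Both starts carried a peak in the 2 libraries with long peak lists and in 0 of the 6 with short ones.

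The sequences of 4 promoters are given because the regions at these starts are described in most detail. At Ifitm7 and Kl every TAK-418 score lay above every vehicle score, and Smyd2 and Cacnb4 came first in the authors' order among gene starts with lower scores. Each sequence runs from 250 bases before to 50 bases after the start annotated by RefSeq (GRCm38.p6), 5′ to 3′ on the gene's strand, and the capitals mark CG dinucleotides.
Ifitm7 promoter, chr16:13986818-13987117, minus strand: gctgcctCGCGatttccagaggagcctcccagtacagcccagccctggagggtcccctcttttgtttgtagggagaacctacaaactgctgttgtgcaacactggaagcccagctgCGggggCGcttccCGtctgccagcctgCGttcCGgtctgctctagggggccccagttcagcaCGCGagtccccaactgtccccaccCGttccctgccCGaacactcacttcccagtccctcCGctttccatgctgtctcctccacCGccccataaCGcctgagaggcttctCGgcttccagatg
Kl promoter, chr5:150952357-150952656, plus strand: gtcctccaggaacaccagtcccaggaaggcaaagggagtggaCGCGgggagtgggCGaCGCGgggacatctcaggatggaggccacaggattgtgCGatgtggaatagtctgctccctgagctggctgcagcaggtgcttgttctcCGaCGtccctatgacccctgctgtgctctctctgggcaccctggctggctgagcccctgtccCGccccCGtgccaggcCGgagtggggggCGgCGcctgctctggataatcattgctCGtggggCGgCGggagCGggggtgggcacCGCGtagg
Smyd2 promoter, chr1:189922242-189922541, minus strand: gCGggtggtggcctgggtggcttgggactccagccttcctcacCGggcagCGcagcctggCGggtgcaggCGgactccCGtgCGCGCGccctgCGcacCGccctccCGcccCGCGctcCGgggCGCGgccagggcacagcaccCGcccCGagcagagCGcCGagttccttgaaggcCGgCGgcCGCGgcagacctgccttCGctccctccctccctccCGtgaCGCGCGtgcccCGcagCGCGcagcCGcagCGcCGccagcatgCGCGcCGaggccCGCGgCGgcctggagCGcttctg
Cacnb4 promoter, chr2:52676094-52676393, minus strand: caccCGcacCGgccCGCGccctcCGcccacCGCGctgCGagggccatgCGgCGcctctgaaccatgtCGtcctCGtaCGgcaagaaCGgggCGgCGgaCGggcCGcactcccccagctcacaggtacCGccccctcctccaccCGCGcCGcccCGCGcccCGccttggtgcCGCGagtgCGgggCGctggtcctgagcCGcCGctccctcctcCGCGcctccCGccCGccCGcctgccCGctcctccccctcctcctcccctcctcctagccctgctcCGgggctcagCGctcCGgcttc
The listed region covered all 300 bases of the Ifitm7 and Cacnb4 windows, 209 of the Smyd2 window and 0 of the Kl window, since the Kl region begins 94 bp downstream of the start. The Ifitm7 window held 15 CG dinucleotides and the Kl window 19, against 43 in the Smyd2 window and 40 in the Cacnb4 window. The median over 21263 promoters of protein-coding genes was 13. At least as many as in the Smyd2 window were found in 3.35% of these promoters, and at least as many as in the Ifitm7 window in 46.8%. The median was 28 over the 354 promoters nearest to the listed gene-start regions that were higher with TAK-418, and 31 over the 333 nearest to those that were lower. For the 12445 promoters of genes with a start peak in both long lists it was 22. A gene could have several promoters in that set and in the set of 21263, while the 354 and 333 were only those nearest to a listed region. The motif TATAAA, searched on both strands, was in 0 of the 4 windows, in 4.24% of the promoters at higher regions, in 4.50% of those at lower regions, in 6.65% of those with a start peak in both long lists and in 12.6% of all promoters.

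Each group contained 1 library with a long peak list and 3 with short ones. The TAK-418 libraries had 421, 359, 16167 and 536 peaks, against 408, 16390, 305 and 499 peaks in the vehicle libraries. The groups overlapped, and the long list of each belonged to its only library with an index sequence of sets 1 and 2, the other 3 having indexes of sets 3 and 4 (the set names were inferred from the index sequences). Read depth was unknown, because the lists hold no read counts. Peaks were called per library by the authors, each with a fold enrichment over local background, which is a ratio. The TAK-418 libraries carried a start peak, that is a peak within 2 kb of the annotated start, at 96, 44, 12974 and 168 protein-coding genes, against 109, 12336, 128 and 81 genes in the vehicle libraries, of 21900 genes in all. On the log10 scale the difference in these gene counts was -0.0450 (two-sided exact permutation p = 0.886, n = 4 per group) and within index sets 3 and 4 it was -0.0674 (exact p = 0.8, n = 3 per group, where the smallest p possible is 0.1).

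**Figure D1:**
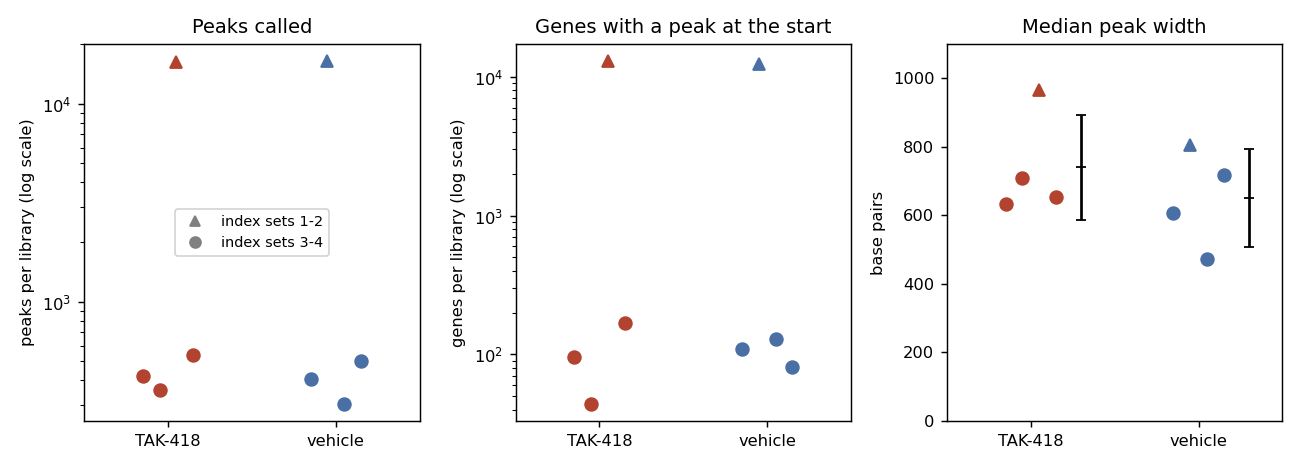
Peaks per library (left, log scale), protein-coding genes with a start peak (middle, log scale) and median peak width in base pairs with mean and SD at the side (right), with 1 symbol per library, triangles for index sets 1-2 and circles for sets 3-4. In each group the library marked by the triangle has 16167 (TAK-418) or 16390 (vehicle) peaks and the other 3 between 305 and 536.

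Peak shape did not separate the groups either. Median peak width was 633, 709, 966 and 652 bp with TAK-418, against 608, 804, 472 and 719 bp with vehicle, which is 740 ± 154 bp against 651 ± 144 bp (SD, n = 4 per group; exact permutation p = 0.429). Median fold enrichment was 4.76, 5.40, 5.66 and 4.77 with TAK-418, against 5.17, 3.80, 5.07 and 4.79 with vehicle (exact permutation p = 0.371, n = 4 per group). After adjustment over the 5 per-library measures tested (peaks, covered length, genes with a start peak, width and fold enrichment), each had an adjusted p of 0.886. The smallest p this design allows is 0.0286. The change with TAK-418 in heterozygotes minus that in wild types gave interaction p-values between 0.622 and 0.915 for the 5 measures (exact permutation of treatment within genotype).

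The 2 long lists named largely the same genes. A start peak was present in both for 11918 genes, which is 91.9% of the genes of the TAK-418 list and 96.6% of those of the vehicle list. It was present only in the TAK-418 list for 1056 genes and only in the vehicle list for 418. Of all protein-coding genes, 59.2% had a start peak in the long TAK-418 list and 56.3% in the long vehicle list. Of 30 genes of excitatory neurons and synapses, 28 had one in the long TAK-418 list and 26 in the long vehicle list. In other lists these numbers were 11 and 7 of 14 astrocyte genes, 7 and 9 of 14 oligodendrocyte lineage genes and 9 and 6 of 17 interferon response genes. For 14 microglial genes these numbers were 2 and 3, for 12 blood cell genes 0 and 0, for 12 skeletal muscle and liver genes 2 and 2, and for 22 Hox genes, which are held by Polycomb complexes in the forebrain, 1 and 5. In the short lists 0 of the 30 neuronal genes had a start peak, in all 6 libraries, beside 0.201% to 0.767% of all protein-coding genes. Outside stretches that carried peaks in 8 or more libraries for both marks, the 3 short TAK-418 lists together had a start peak at 185 genes and the 3 short vehicle lists at 203, of which 23 were shared. A start peak was present in at least 2 short lists of 1 group and in none of the other at 1 gene for TAK-418 and at 3 genes for vehicle (named here after their values were seen). The first was Zup1, which encodes a deubiquitinase. The others were the palmitoyltransferase gene Zdhhc18, in 3 short vehicle lists, and the elongation factor gene Eef2 and the zinc finger gene Zfp984, in 2 each.

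The list of differential regions held, for each region, a −log10 p by the authors and 1 whole-number normalised score per library. The regions had been selected by the authors on these same 8 libraries, with a −log10 p of at least 1.3, so the direction and size of a difference in a listed region describe the list and are not independent evidence. How the scores were normalised, and whether the p was adjusted, is not stated in these sources. The position of a score within its group was taken as 1 library throughout: over the 237 regions that recur unchanged in another list with the TAK-418 group, and the 138 that recur with the vehicle group, scores at the same position correlated at 0.999 or more. The list does not say which position is which library, and none was assigned. Of the 1715 regions, 1175 (68.5%) had a higher mean score with TAK-418 and 540 (31.5%) a lower one.

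By place, the list fell into classes with unlike directions. At protein-coding gene starts, 426 regions were higher with TAK-418 and 418 lower. Away from gene starts, 509 regions were higher and 63 lower; among them 240 lay where none of the 31 libraries of either mark had a peak, of which 238 were higher. In stretches where at least 8 libraries of each mark had a peak, called recurrent here, 240 regions were higher and 59 lower. Only the gene starts therefore held similar numbers in both directions, and they held 418 of the 540 lower regions. With limma on log2(score + 1) and Benjamini-Hochberg adjustment over the list, 0 of the 1715 regions (0%) had an adjusted p under 0.05, the smallest being 0.683, and 3 (0.175%) had an unadjusted p under 0.05. In 6 regions (0.35%) the groups did not overlap, all 6 higher with TAK-418.

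One score of each group set much of the pattern at gene starts. Expressed as a percentage of the mean of a region's 8 scores, the gene-start regions that were higher with TAK-418 had median scores of 103%, 49.95%, 241% and 98.8% in the 4 TAK-418 positions, against 62.5%, 136%, 54.0% and 50.4% in the vehicle positions. The regions that were lower had medians of 41.2%, 20.8%, 189% and 52.2% with TAK-418, against 104%, 203%, 109% and 72.8% with vehicle. The third TAK-418 score was the highest of its group in 809 of the 844 gene-start regions, and the second vehicle score in 731. In recurrent regions the order was the other way round: the second vehicle score was the lowest of its group in 281 of 299, at a median of 12.2% of the region's mean, and the third TAK-418 score in 250. Without the third TAK-418 score 280 gene-start regions were higher, and without the second vehicle score 481. Without both, 395 were higher and 448 lower. Most directions were kept in that setting: 395 of the 426 higher regions stayed higher, and all 418 lower ones stayed lower. The choice to leave these scores out was made after seeing the data.

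**Figure D2:**
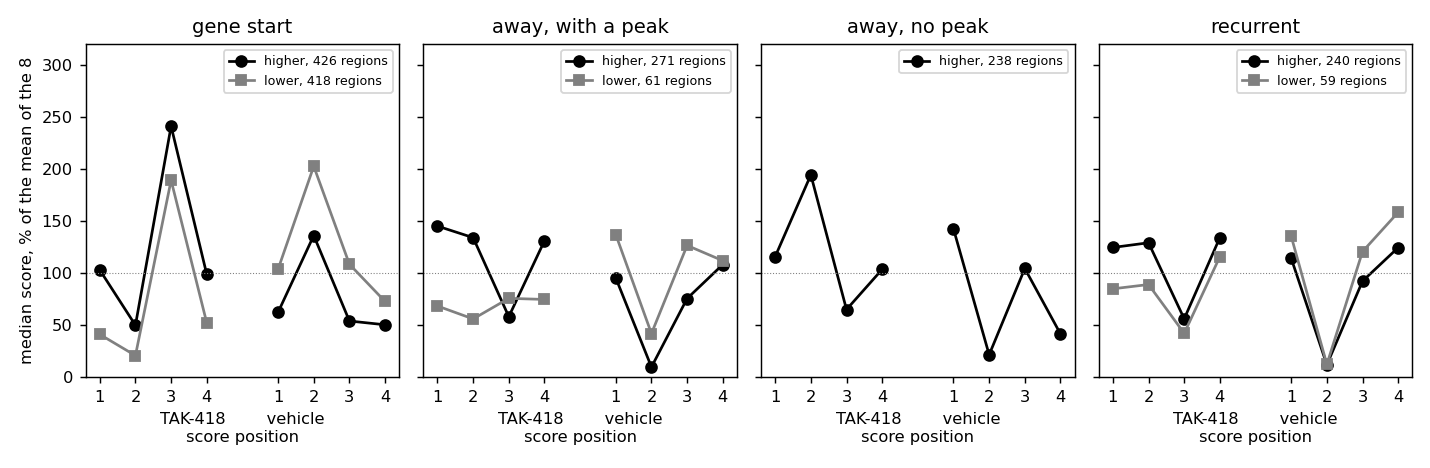
Median score at each score position, as a percentage of the mean of a region's 8 scores, with TAK-418 positions 1 to 4 left of vehicle positions 1 to 4, for regions higher (black) and lower (grey) with TAK-418 in each class; lines only join the positions of a group, and the 2 lower regions without any peak are not drawn. At gene starts TAK-418 position 3 and vehicle position 2 are highest, and in recurrent regions they are lowest.

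**Figure D3:**
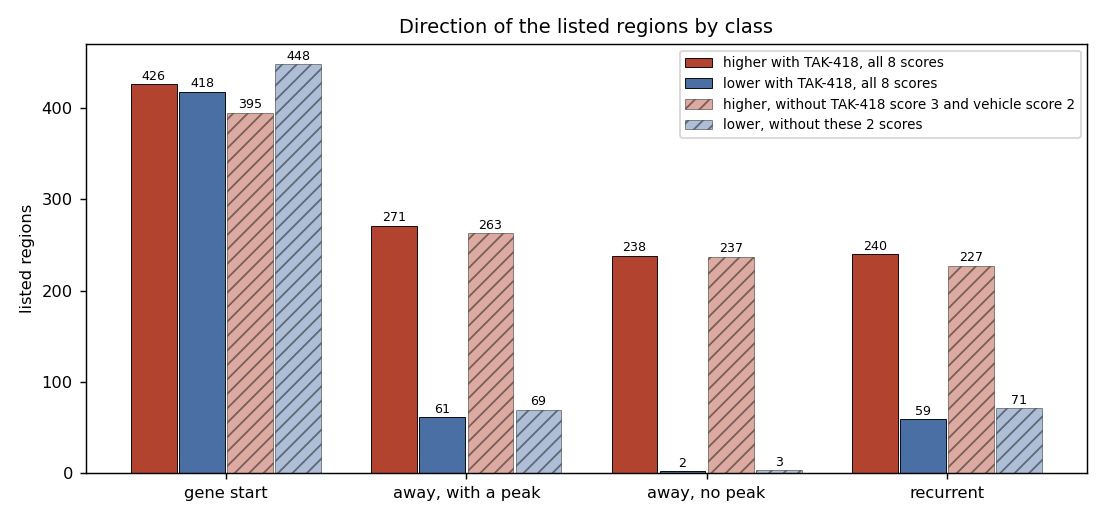
Number of listed regions higher (red) and lower (blue) with TAK-418 in each class, with all 8 scores (solid) and without the third TAK-418 and second vehicle scores (hatched). Gene starts hold 426 higher and 418 lower regions, and regions away from starts without any peak 238 and 2.

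With both of these scores left out, the groups of 3 did not overlap in 144 regions that were higher (8.4% of the list) and in 225 that were lower (13.1%). At gene starts this held for 51 of the 426 higher regions and for 179 of the 418 lower ones. By limma 0 regions had an adjusted p under 0.05 in that setting, the smallest being 0.433, and 169 (9.85%) had an unadjusted p under 0.05, of which 119 were lower regions at gene starts and 12 higher ones. The peaks called in the short lists come from the libraries by which the regions and their directions were chosen, so their counts are only a description. Of the 426 higher regions, 65 had a peak in at least 1 short TAK-418 list and 22 in at least 1 short vehicle list; of the 418 lower regions, 7 and 53 did. Nearly all had a peak in the long lists whatever their direction, the higher ones in 409 (TAK-418) and 399 (vehicle) and the lower ones in 417 and 416. In the long TAK-418 list the peaks at higher regions had a median fold enrichment of 7.44, against 4.90 in the long vehicle list, and those at lower regions 6.89 against 5.78. Over all peaks of these lists the medians were 5.66 and 3.80, so the TAK-418 library was higher throughout.

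Most regions of both directions lay just downstream of the start. Where the strand was known, the centre of the 359 higher regions lay at a median of 303 bp downstream of the start and that of the 334 lower regions at 318 bp. The quartiles were 183 and 446 bp for the higher regions and 195 and 464 bp for the lower ones. The centre was downstream of the start in 88.3% of the higher regions and in 95.5% of the lower ones, and the 10th percentile lay at -46.5 bp for higher and at 90.8 bp for lower regions. Both kinds had a median width of 450 bp. In total 468 genes (2.14% of 21900) had a higher region at the start and 463 (2.11%) a lower one, and 13 had both. All counts include chromosome M, the mitochondrial DNA. It held 11 listed regions, 10 of them higher, with 2 classed at gene starts and 9 as recurrent.

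Ifitm7, a member of the interferon-induced transmembrane family, headed the higher regions at gene starts. Its region at chr16:13986751-13987200, which also lies within 2 kb of the start of Bmerb1, had scores of 79, 63, 193 and 51 with TAK-418, against 23, 25, 21 and 27 with vehicle. All TAK-418 scores were above all vehicle scores, the mean being 96.5 ± 65.3 against 24.0 ± 2.58 (SD, n = 4 per group), a ratio of 4.02. Kl encodes Klotho, a co-receptor for the hormone FGF23 that in the brain is made mostly by the choroid plexus. Its region at chr5:150952701-150953050 began 94 bp from the start and had scores of 76, 83, 83 and 55 with TAK-418, against 5, 15, 36 and 23 with vehicle. These groups too were apart, with means of 74.3 ± 13.3 and 19.8 ± 13.1 (SD, n = 4 per group) and a ratio of 3.76. A peak overlapped this 350 bp region in the long TAK-418 list and in 0 vehicle lists. Within 2 kb of the start, however, Kl had a peak in both long lists. Of the 12 choroid plexus and ependyma genes examined, Kl was the only one with a listed region; 3 of them had a start peak in the long TAK-418 list and 5 in the long vehicle list, and the part of that tissue in the difference at Kl was not tested. The log2 difference was 2.12 ± 1.07 at Kl and 1.77 ± 0.95 at Ifitm7 (SE), each with a limma adjusted p of 0.683.

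In the other higher regions that came first, the groups overlapped in at least 1 library. Ism2, which encodes a secreted protein of the isthmin family, had scores of 204, 48, 158 and 106 with TAK-418, against 60, 73, 37 and 20 with vehicle. One TAK-418 score was below the highest vehicle scores, and the ratio of means was 2.72. Abhd12, a lysophospholipase gene, had scores of 80, 44, 227 and 81 with TAK-418, against 9, 119, 13 and 29 with vehicle. Here the second vehicle score was above 3 of the TAK-418 scores, and without it and the third TAK-418 score the groups did not overlap. The groups also did not overlap without those scores at Sbf1, a pseudophosphatase gene of the myotubularin family, with 73, 62, 196 and 30 with TAK-418, against 27, 60, 14 and 28 with vehicle. Rps21, a ribosomal protein gene, had scores of 101, 13, 170 and 89 with TAK-418, against 39, 52, 24 and 19 with vehicle. Pum2, which encodes an RNA-binding translational repressor, had 118, 42, 238 and 79 with TAK-418, against 58, 72, 27 and 46 with vehicle. The second TAK-418 score was below every vehicle score at Rps21 and below 3 of the 4 at Pum2, and the ratios were 2.78 at Rps21 and 2.35 at Pum2.

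The other 3 of the first 10 were unlike typical promoters in their peaks. The Pitpnc1 region, whose nearest edge lay 1881 bp from the start of that phosphatidylinositol transfer protein gene, had a peak in 0 of the 31 libraries and scores of 725, 1387, 469 and 825 with TAK-418, against 1318, 140, 646 and 301 with vehicle. The Mroh2a region, 1370 bp from its start, had scores of 260, 218, 58 and 216 with TAK-418, against 129, 5, 117 and 136 with vehicle. Its TAK-418 scores were above every vehicle score except for the third. It had a peak in 3 of the 3 short TAK-418 lists, in 1 short vehicle list and in 0 long lists. Zfp978, a zinc finger gene, had 418, 606, 68 and 284 with TAK-418, against 371, 13, 302 and 157 with vehicle, with peaks in 3 short TAK-418 lists, 2 short vehicle lists and 0 long lists. In all 3 the second vehicle score was the lowest of the 8.

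Smyd2 headed the lower regions at gene starts. It encodes a lysine methyltransferase that acts on H3K36 and on p53. Its region at chr1:189921951-189922450, which covers the start, had scores of 10, 23, 176 and 33 with TAK-418, against 148, 171, 153 and 71 with vehicle. Of the TAK-418 scores 3 were below every vehicle score and the third was above them all. The means were 60.5 ± 77.6 and 136 ± 44.3 (SD, n = 4 per group), a ratio of 0.446; without the third TAK-418 and second vehicle scores the ratio was 0.177. Cacnb4, which encodes the β4 subunit of voltage-gated calcium channels, had scores of 24, 6, 141 and 36 at chr2:52676051-52676550 with TAK-418, against 105, 194, 134 and 50 with vehicle. Again 3 TAK-418 scores were below every vehicle score, and the ratio was 0.429 over all scores. Each of these 2 regions had a peak in 0 of the short TAK-418 lists and in 1 short vehicle list. The log2 difference was -1.87 ± 0.93 at Smyd2 and -1.82 ± 0.97 at Cacnb4 (SE), each with a limma adjusted p of 0.683.

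The next lower regions shared this layout of 3 low TAK-418 scores beside a high score at the third position. Mark4, a kinase gene whose product phosphorylates tau and other microtubule-associated proteins, had scores of 46, 7, 222 and 55 with TAK-418, against 119, 284, 165 and 91 with vehicle. Mob1b, which encodes an activator of the LATS kinases of the Hippo pathway, had 49, 53, 260 and 30 with TAK-418, against 139, 387, 103 and 93 with vehicle. Hnrnpa0, a gene for an RNA-binding protein, had 53, 93, 287 and 116 with TAK-418, against 263, 314, 152 and 193 with vehicle. In each of these 3 the other TAK-418 scores were below every vehicle score. It also held for the sorting nexin gene Snx13 (ratio 0.492), the zinc finger gene Zfp236 (0.506) and the heparan sulfate proteoglycan gene Sdc3 (0.417). It did not hold for Csnk1e, which encodes casein kinase 1 epsilon of the circadian clock, with 18, 36, 148 and 68 with TAK-418, against 112, 201, 177 and 57 with vehicle. Nor did it hold for Taf4, a TFIID subunit gene, with 26, 13, 89 and 23 with TAK-418, against 64, 137, 136 and 23 with vehicle.

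**Figure D4:**
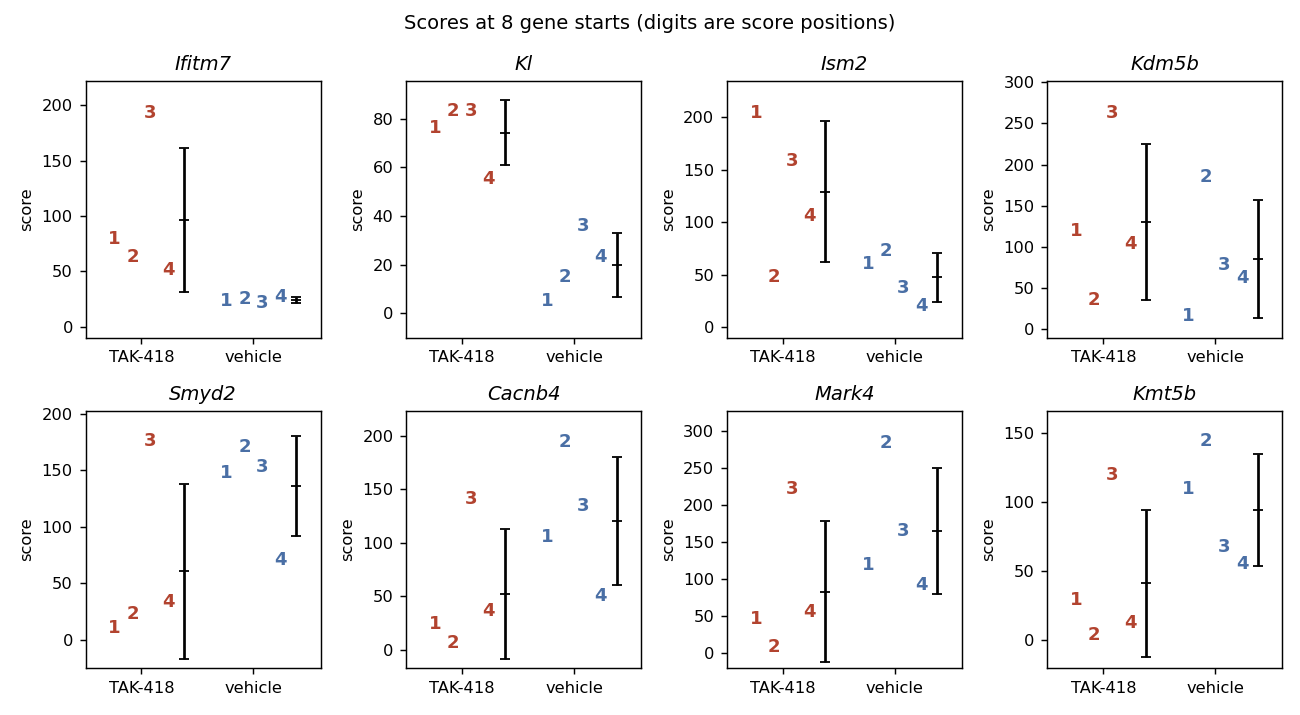
Scores of the listed region at 8 gene starts, TAK-418 (red) left of vehicle (blue), each digit being the score at that position of its group and the bar the mean and SD of the 4. In the upper row (Ifitm7, Kl, Ism2, Kdm5b) the mean is higher with TAK-418, and in the lower row (Smyd2, Cacnb4, Mark4, Kmt5b) 3 TAK-418 scores lie below all vehicle scores while the third does not.

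Further gene starts were apart once the third TAK-418 and second vehicle scores were set aside; those named here were chosen after their values were seen. Erp44, a chaperone gene of the secretory pathway, had scores of 53, 71, 180 and 102 with TAK-418, against 20, 89, 17 and 31 with vehicle. Mef2d, a transcription factor gene active in neurons, had 66, 55, 273 and 58 with TAK-418, against 54, 115, 9 and 26 with vehicle. Psma1, a proteasome subunit gene, had 61, 53, 217 and 53 with TAK-418, against 29, 56, 31 and 35 with vehicle. Among the lower ones, Miga2, which encodes a mitochondrial outer membrane protein, had 5, 12, 91 and 9 with TAK-418, against 78, 88, 57 and 86 with vehicle. Klc1, a kinesin light chain gene, had 25, 90, 370 and 41 with TAK-418, against 144, 316, 226 and 153 with vehicle. Dyrk2, a kinase gene, had 44, 15, 296 and 59 with TAK-418, against 126, 303, 180 and 119 with vehicle. In all 6 the third TAK-418 score was the highest of its group.

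A listed region lay at the start of 4.19% of all protein-coding genes and of 7.56% of those with a start peak in both long lists, and the counts for the gene lists stand beside these shares. Of 19 genes of H3K4 demethylases and the LSD1-CoREST complex, 16 had a start peak in both long lists, 1 (5.26%) had a higher region and 0 a lower one. The higher one was Kdm5b, whose product removes methyl groups from trimethylated H3K4, with scores of 119, 36, 262 and 104 with TAK-418, against 16, 185, 78 and 62 with vehicle. These overlapped, with means of 130 ± 95.0 and 85.3 ± 71.5 (SD, n = 4 per group). Of 18 genes of the H3K4 methyltransferase complexes, 16 of them with a start peak in both long lists, 1 had a higher and 1 a lower region (11.1%). Kmt2a, a catalytic subunit gene, had 52, 23, 215 and 71 with TAK-418, against 39, 101, 51 and 37 with vehicle. Its mean was higher with TAK-418 through the third score and was lower without it. Wdr5, a core subunit gene, had 47, 31, 172 and 66 with TAK-418, against 100, 184, 119 and 57 with vehicle, with a ratio of 0.687.

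Of 25 other histone lysine methyltransferase genes, 23 of them with a start peak in both long lists, 4 had a listed region. Besides Smyd2, Kmt5b and Setd7 had lower regions and Kmt5a a higher one. Kmt5b, which encodes an enzyme that dimethylates and trimethylates H4K20, had scores of 29, 3, 119 and 12 with TAK-418, against 109, 144, 67 and 55 with vehicle, a ratio of 0.435. Of its TAK-418 scores 3 were below every vehicle score. Kmt5a, which encodes the enzyme that monomethylates H4K20, had 68, 30, 252 and 147 with TAK-418, against 50, 155, 58 and 110 with vehicle. Setd7, which encodes an enzyme that monomethylates H3K4, had 28, 47, 233 and 43 with TAK-418, against 93, 293, 105 and 28 with vehicle. Without the third TAK-418 score the mean at Kmt5a was lower with TAK-418, and without the second vehicle score that at Setd7 was higher. At both genes the groups overlapped also without the third TAK-418 and second vehicle scores.

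In the lists of neuronal and signalling genes 0 to 2 members each were listed, and all of these overlapped between groups. Of 18 voltage-gated calcium channel genes, 2 had lower regions, Cacnb4 and Cacna2d3, and 0 had higher ones. Cacna2d3, an auxiliary subunit gene, had scores of 48, 31, 79 and 42 with TAK-418, against 78, 120, 82 and 29 with vehicle. Of 27 Wnt signalling genes, Axin2, a feedback inhibitor, had a higher region (ratio 1.22) and the receptor gene Fzd3 a lower one (ratio 0.561). Neither direction held throughout: the mean at Axin2 was lower with TAK-418 without the third TAK-418 score, without the fourth vehicle score or with scores divided by the median of their position, and that at Fzd3 was higher without the second vehicle score. Of 30 excitatory neuron genes Wfs1, a marker of CA1 pyramidal cells, had a lower region with 28, 0, 43 and 40 with TAK-418, against 98, 46, 57 and 28 with vehicle. Of 14 astrocyte genes Glul, the glutamine synthetase gene, had a lower one with 55, 23, 238 and 23 with TAK-418, against 49, 208, 119 and 113 with vehicle. Mark4 was the only one of 24 genes of microtubule and axon regulation. None of 26 neural progenitor and neurogenesis genes, 16 inhibitory neuron genes, 14 oligodendrocyte lineage genes, 14 microglial genes, 12 vascular genes or 20 immediate early genes had a listed region at the start. A start peak in both long lists was present at 20 of the immediate early genes and at 21 of the neurogenesis genes, beside the share of 7.56% listed among all such genes.

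Housekeeping groups gave similarly small counts. Of 34 ribosomal protein genes in the list drawn up, Rpl5 had a higher region with 46, 47, 222 and 51 with TAK-418, against 26, 140, 36 and 2 with vehicle, and Rps6 a lower one with 14, 23, 155 and 45 with TAK-418, against 79, 131, 79 and 48 with vehicle. Without the third TAK-418 score the mean at Rpl5 was lower with TAK-418. Of 24 respiratory chain genes the cytochrome c1 gene Cyc1 had a lower region (ratio 0.698). Of 18 circadian genes Clock had a lower region with 55, 25, 264 and 59 with TAK-418, against 124, 184, 155 and 95 with vehicle. Of 17 interferon response genes Ifitm7 alone was listed. Over all 22 lists, 20 of the 427 genes (4.68%) had a listed region at the start, beside 918 of the 21900 protein-coding genes (4.19%).

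At 13 genes, among them ND5 of the mitochondrial DNA, a higher and a lower region lay at the same gene. In 7 of the 13 the regions were directly adjacent, with no base between them. At Abi1, an actin regulator gene, the region centred 371 bp downstream of the start had scores of 114, 16, 290 and 39 with TAK-418, against 14, 111, 40 and 37 with vehicle. The adjacent region, centred at 771 bp, had 12, 20, 156 and 23 with TAK-418, against 99, 90, 59 and 64 with vehicle. At Zeb2, a transcription factor gene, the region at 76.5 bp had 67, 22, 178 and 60 with TAK-418, against 25, 82, 58 and 28 with vehicle, and that at 477 bp had 75, 13, 160 and 10 with TAK-418, against 32, 162, 112 and 76 with vehicle. At Arid1a, a subunit gene of the BAF chromatin remodelling complex, the higher region was centred at 360 bp and the lower one at 1435 bp. At Foxo1, a transcription factor gene of the insulin pathway, the order was reversed, with the lower region at 364 bp and the higher one at 939 bp. At Arid1a the higher region had scores of 145, 34, 248 and 110 with TAK-418, against 84, 140, 70 and 38 with vehicle, and the lower one 75, 2, 205 and 87 with TAK-418, against 104, 261, 202 and 67 with vehicle. In each of these regions the third TAK-418 score was the highest of its group.

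**Figure D5:**
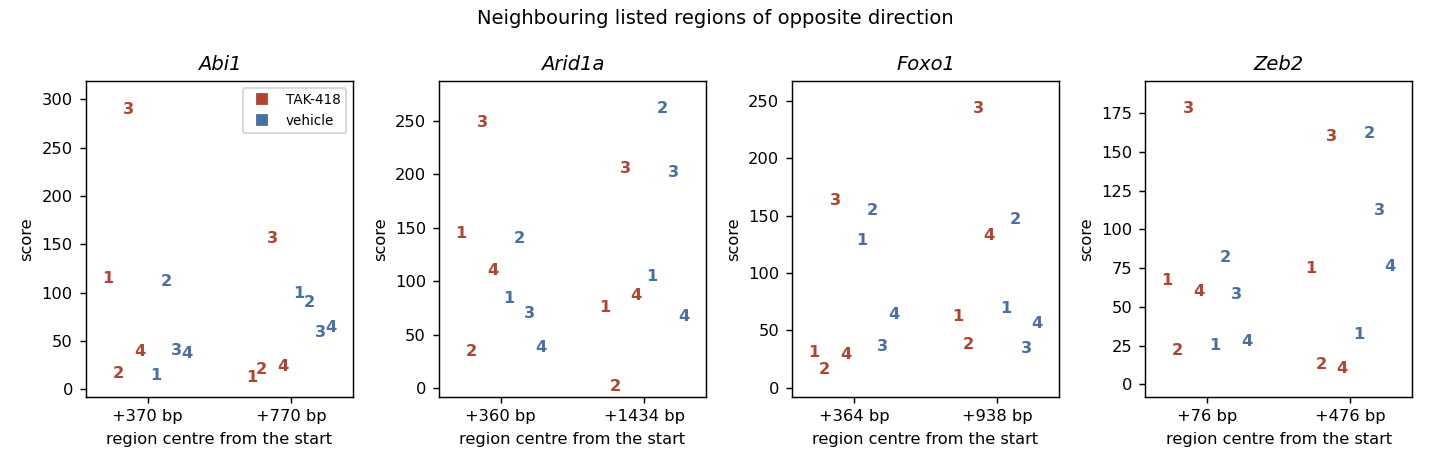
Scores of neighbouring listed regions at 4 genes, TAK-418 (red) left of vehicle (blue) for each region, placed by the distance of the region's centre from the start; digits are score positions. At Abi1, Arid1a and Zeb2 the region nearer to the start is the one with the higher TAK-418 mean, and at Foxo1 it is the farther one.

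Away from gene starts nearly all listed regions were higher with TAK-418, and many had peaks in the short lists. Of the 271 higher regions with a peak in some library, 170 had one in the long TAK-418 list, 72 in the long vehicle list, 204 in a short TAK-418 list and 161 in a short vehicle list. Among them were 2 of the regions whose groups did not overlap. One lies inside Cntn3, a neural cell adhesion gene, 99484 bp from its start, at chr6:102564151-102564500, with 71, 41, 89 and 72 with TAK-418, against 12, 40, 35 and 21 with vehicle. The other lies 372338 bp from the nearest protein-coding start, that of Csmd1, at chr8:15519801-15520200, with 167, 174, 159 and 152 with TAK-418, against 108, 76, 144 and 126 with vehicle. Each had a peak in the long TAK-418 list, and the first also in the long vehicle list.

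The lower regions away from starts were few, and the first of them resembled the lower gene starts. A region inside Jakmip1, a gene for a microtubule-associated protein of neurons, had scores of 12, 14, 113 and 24 with TAK-418, against 94, 104, 123 and 89 with vehicle, and 3 of its TAK-418 scores lay below every vehicle score. A region 3302 bp from the start of Ntng2, which encodes a presynaptic netrin-like adhesion protein, had 20, 6, 170 and 54 with TAK-418, against 156, 153, 114 and 74 with vehicle. A region inside Macf1, a cytoskeletal crosslinker gene, had 27, 13, 150 and 45 with TAK-418, against 92, 238, 90 and 50 with vehicle. All 3 had a peak in both long lists. The remaining pair among the first 5, a region inside Rassf5 and one near Hjurp, had ratios of 0.470 and 0.424. Their groups overlapped with all 8 scores and also without the third TAK-418 and second vehicle scores.

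In the 238 higher regions where no library had a peak, the second vehicle score was the lowest of its group in 197. Their median relative scores were 116%, 194%, 65.1% and 104% with TAK-418, against 142%, 21.6%, 104% and 41.6% with vehicle, with the highest median at the second TAK-418 position and the lowest at the second and the fourth vehicle positions. Scores there reached 20086, in a region inside the DNA repair gene Xrcc4 (chr13:89868201-89868600, nearest start that of Vcan) with 11478, 20086, 7726 and 10334 with TAK-418, against 15844, 2575, 11141 and 4353 with vehicle. The second TAK-418 score was likewise the highest of its group, and the second and the fourth vehicle scores the lowest of theirs, in regions near Ctnna2 and Flrt2 and inside Afm, with ratios of 1.52, 1.43 and 1.49. They were so too in a region inside Trim30a, which had a peak in 1 long and 1 short list of these groups and scores of 278762, 487722, 203488 and 270401 with TAK-418, against 490742, 71502, 300003 and 127428 with vehicle. In the authors' deposited table this region had the highest −log10 p of the list, 174, and every TAK-418 score lay within the range of the vehicle scores. A further 2 regions without a peak were among those whose groups did not overlap: one at chr3:10840951-10841200, with 153, 59, 40 and 50 with TAK-418, against 31, 0, 25 and 25 with vehicle, and one on chromosome Y, with 42, 95, 42 and 48 with TAK-418, against 30, 12, 36 and 28 with vehicle.

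The recurrent regions held the highest scores and small ratios. A stretch of 38550 bp at chr9:2999951-3038500 had scores of 4350469, 3065567, 1471978 and 3195088 with TAK-418, against 3585430, 542423, 2750069 and 3077995 with vehicle. The ratio of means was 1.21, and without the low second vehicle score the mean was lower with TAK-418, while without that and the third TAK-418 score the ratio was 1.13. Regions at chr10:72297051-72297800 and chr9:35305101-35305850 had ratios of 1.22 and 1.23 and likewise had a lower mean with TAK-418 without that score. A region of 6150 bp at chr17:39842901-39849050, which overlaps the ribosomal RNA pseudogene Rn18s-rs5, had scores of 29069, 25237, 20187 and 28222 with TAK-418, against 24391, 10967, 23901 and 24675 with vehicle. Without the second vehicle score, 135 of the 240 higher recurrent regions remained higher. Listed regions also lay close together: 152 were within 1 Mb of chromosome 1 (85 to 86 Mb), of which 113 were higher, 60 on chromosome 11 (3 to 4 Mb), 53 on chromosome 4 (147 to 148 Mb, beside zinc finger genes) and 32 on chromosome 8 (20 to 21 Mb, 31 higher). In the first of these, 144 of 152 regions had a peak in a short TAK-418 list, 140 in a short vehicle list, 111 in the long TAK-418 list and 39 in the long vehicle list.

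On the sex chromosomes nearly all listed regions were higher with TAK-418, as were most regions off gene starts in the whole list. In that list 81.6% of the regions away from starts with a peak were higher. The share was 99.2% for those without any peak and 80.3% for recurrent ones. On chromosome X 36 of 39 regions were higher with TAK-418, and 0 were at gene starts. On chromosome Y all 29 were higher. Over the 20 of them below 90 Mb the median scores were 253, 212, 63 and 9 with TAK-418, against 12.5, 24.5, 7.5 and 124 with vehicle. The peak lists held 7, 3, 10 and 0 peaks there in the TAK-418 libraries, against 0, 29, 0 and 6 in the vehicle libraries. The part of the mice's sex in these regions was not tested.

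The list for TAK-418 against vehicle in wild types, which shares no library with this one, held 2780 regions, and 763 of the 1715 regions overlapped one of them by at least 1 bp. At gene starts 318 overlapped, and 168 of these (52.8%) had the same direction in both genotypes. Of the overlapping gene-start regions that were higher in heterozygotes, 69.0% were higher in wild types, and of those that were lower, 63.1% were, beside 63.6% of the whole wild type list. Where no library had a peak, 119 of 120 overlapping regions had the same direction, and in recurrent regions 148 of 208. These shares were not tested.

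Of the 35 named regions at gene starts, 13 overlapped a region of the wild type list. Among these, 10 had the same direction as in heterozygotes and 3 the opposite one. The difference between genotypes was not tested. In the wild type list the region at Ism2 had a mean score of 137 with TAK-418 and 63.8 with vehicle, and that at Kmt5a 211 and 124, both higher as in heterozygotes. Sbf1, Mroh2a, Kmt2a and Pitpnc1 were also higher, with ratios between 1.11 and 1.53. The region at Cacnb4 had 131 with TAK-418 and 169 with vehicle, and that at Snx13 97.0 and 141, both lower as in heterozygotes. Clock and Cacna2d3 were also lower, with ratios of 0.747 and 0.731. The 3 opposite ones were Mark4, with 270 with TAK-418 and 199 with vehicle, Kdm5b, with 215 and 284, and Rpl5, with 94.8 and 131. Overlapping regions could differ in their bounds. At Kdm5b the wild type region, chr1:134560801-134561650, shared only its edge with the heterozygote one, chr1:134560301-134560850, so mostly different sequence is compared there. The same holds for Mroh2a, counted with the same direction. Its wild type region was chr1:88225451-88226100 and its heterozygote one chr1:88224801-88225650. Ifitm7, Kl, Smyd2 and Kmt5b had no region in the wild type list.

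The list of heterozygote against wild type mice on vehicle shares its 4 heterozygote libraries with this comparison, so its values are only set beside the others. It held 11 of the named gene-start regions. Smyd2, lower with TAK-418, had means of 107 in heterozygotes and 74.8 in wild types. Every other one of these regions had a lower mean in heterozygotes than in wild types, whether it was higher or lower with TAK-418. The share of such regions in that whole list is not given here. For those higher with TAK-418 the means were 165 and 292 at Kdm5b, 58.5 and 95.0 at Rpl5, and 80.8 and 125 at Kmt5a. They were 53.0 and 84.8 at Axin2, and 520 and 705 at Pitpnc1. Of the regions that were lower with TAK-418, 5 also had lower means in heterozygotes than in wild types. These means were 84.3 and 131 at Glul, 64.8 and 90.8 at Setd7, 167 and 212 at Clock, 73.8 and 106 at Cacna2d3, and 88.8 and 129 at Cyc1. A further list set heterozygotes given TAK-418, the same libraries as here, against wild types on vehicle. Its means were 202 and 319 at Kdm5b, 62.5 and 87.8 at Rpl5, and 81.8 and 115 at Kmt5a. Glul, Setd7, Clock, Cacna2d3 and Cyc1 also had lower means in heterozygotes there, and Smyd2, Axin2 and Pitpnc1 had no region. Scores were normalised separately in each list, and overlapping regions could differ in their bounds.

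H3K4me1, the mark of enhancers, was measured in the same mice, and its list for this comparison held 545 regions. These overlapped 381 of the 1715 H3K4me3 regions, but 10 of the 844 at gene starts. In recurrent regions 104 of 216 overlapping regions had the same direction for both marks. Where no library had a peak, 91 of 94 did.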

How the data were processed

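ChIP-seq libraries were made from the hippocampus of single mice with an antibody against H3K4me3 (Abcam), per the labels' protocols. The submitters' processing notes name mm10, MACS2, MACS and bedtools, with no role. The aligner, control library and peak threshold are not stated there. The authors deposited 1 peak list per library, in which each peak has a fold enrichment (a ratio), a −log10 p and a −log10 q, and lists of differential regions in which each region has a −log10 p and 1 whole-number score per library. Depth was unknown, and the number of libraries limits the precision. Caller display scores were not used.

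Here a region was placed at a gene start when it lay within 2 kb of a protein-coding start of RefSeq GRCm38.p6, or of either gene end for the 4408 of 21900 genes without a strand in the tables used. Regions overlapping the 232 stretches (357 kb) where at least 8 libraries of each mark had a peak were called recurrent. Directions came from mean scores. limma 3.58.1 (R 4.3.3, eBayes with trend) was run on log2(score + 1) over all 1715 regions with Benjamini-Hochberg adjustment. Its code was first tried on simulated data with independent noise of equal size and no differences between libraries. That trial does not show the power in these data. Per-library measures were compared on the log10 scale with two-sided exact permutation tests (scipy 1.17.1). Litters were not described. The p-values measure the spread between these libraries, 1 per mouse. That spread includes the difference between index sets, for which no covariate was fitted. Named were the first 10 regions in each direction at gene starts, the first 5 in each direction away from them and the first 3 recurrent ones by the authors' −log10 p, the 3 widest in each direction, every region whose groups did not overlap, and every region at a gene of 22 lists (427 of 431 symbols matched). The members and lists were chosen with earlier results of these data known.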

Additional observations from a re-analysis of the deposited data

Results flagged for a closer look

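In groups of 4 libraries, 23 of 128 sets of values had 1 library far from the other 3 by Dixon's criterion. For independent normal values the criterion flags about 1 in 20. These sets came from the same libraries, so their count cannot be read against that rate. The long peak lists stood apart: 16167 peaks, 18649 kb covered and 12974 genes with a start peak in 1 TAK-418 library, and 16390 peaks, 15802 kb and 12336 genes in 1 vehicle library. Among the named regions the third TAK-418 score stood above the rest at Glul (238), Smyd2 (176), Setd7 (233), Sdc3 (112), Jakmip1 (113), Clock (264), Mob1b (260), Rpl5 (222), Snx13 (198) and the recurrent region at Gm40367 (476). It stood below the rest in the widest region at Sfi1 (5216). The second vehicle score stood above the rest at Mob1b (387) and below the rest at Mroh2a (5), in a second region at Sfi1 (107) and in the 6150 bp region on chromosome 17 (10967). The first TAK-418 score stood above the rest in the region at chr3:10840951-10841200 (153), and the second in the region on chromosome Y (95).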

How the results depend on the processing

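None of the per-library measures passed the threshold of the exact permutation test in any setting, and their small differences, given here as log10 TAK-418 minus vehicle, changed sign in some. With peaks of −log10 q of at least 5, genes with a start peak differed by 0.202 and median width by -0.0232; with index sets 3 and 4 only, median fold enrichment differed by -0.00342. Leaving out each library in turn gave -0.366 to 0.432 for peaks, -0.329 to 0.401 for covered length and -0.586 to 0.473 for genes with a start peak, the extremes being without the 2 libraries with long lists. No paired analysis was possible because the replicate numbers only name the libraries.

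By limma, 0 regions passed in each of 13 alternatives. The count without overlap, 6, became 30 (26 of them lower with TAK-418) with scores divided by the median of their position, 369 without the third TAK-418 and second vehicle scores, and 10 to 295 with each score left out in turn. Of 1715 regions 1025 to 1191 were higher with each score left out; 783 were higher, of 1041, at the authors' −log10 p of at least 2. At gene starts 232 were then higher and 202 lower, and 280 to 481 were higher with each score left out.

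Of 59 named regions, 46 kept their direction in all 10 settings tried after seeing the data. On the log2 scale of the ratio of means, leaving out each score gave -1.72 to 0.22 at Setd7, -0.087 to 2.10 at Rpl5, -0.19 to 0.77 at Kmt5a, -0.23 to 1.09 at Kmt2a, -0.30 to 0.74 at Axin2 (-0.034 with scores divided by the median of their position) and -2.11 to 0.074 at Fzd3. For recurrent regions it gave -0.89 to 0.0034 near Gm40363, -0.47 to 0.056 at LOC100504180, -0.13 to 0.40 and -0.55 to 0.073 at Sfi1, -0.055 to 0.51 for chr9:2999951-3038500, -0.030 to 0.54 for chr9:35305101-35305850 and -0.027 to 0.85 for chr10:72297051-72297800. The cause was not tested. Unknown depth limits what a score near 0 can show.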
